A study of Mus musculus with 9 samples.

Results

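Fibroblasts and mural cells are the supporting cells of the lung wall and its vessels, and 10 genes that mark them are described here: Pdgfra, Pdgfrb, Dcn, Lum, Acta2, Tagln, Thy1, Fn1, Postn and Rgs5. They were taken by symbol, and each had 1 row among the 57010 gene rows of both comparison tables that the authors deposited. The libraries were bulk RNA-seq of mouse organoids, small tissue-like bodies grown in culture. The groups, of 3 libraries each, were organoids of normal lung (Normal), organoids of small cell lung cancer (SCLC), and SCLC organoids that had received GSK. The labels used here name no strain, sex, age, allele, organoid line or number of animals, and give no dose, time or chemical identity for GSK. Nothing in them says that the 3 libraries of a group came from separate animals or cultures, so the p-values measure only the spread between these libraries, which may be technical.

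Fibroblasts build the matrix of connective tissue, while pericytes and smooth muscle cells, together called mural cells, wrap vessels and airways. Both depend on platelet-derived growth factors: PDGFRα is the receptor typical of lung fibroblasts and PDGFRβ that of pericytes, and the ligands come largely from epithelium, endothelium and other neighbours. Decorin, lumican, fibronectin and periostin are secreted matrix proteins, α-smooth-muscle actin and transgelin belong to the contractile apparatus, RGS5 damps G-protein signalling in pericytes, and Thy-1 is a surface protein of fibroblasts that neurons and T cells also carry.

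The tables held no value for a single library. Group levels are therefore the means, in normalized counts per library, implied by each gene's mean over 6 libraries and its fold change, and no SD can be given for them. Errors are the authors' standard errors (SE) of the log2 fold change, and a gene is said to have risen or fallen where the authors' adjusted p was under 0.05. The authors' deposited tables hold a comparison of SCLC with Normal and one of GSK with a group called Ctrl. Summed over all genes, the implied means were 44706821 normalized counts per library in Normal, 42007045 in SCLC, 45333553 in Ctrl and 31919648 in GSK. Ctrl was taken as the SCLC group: over 13634 genes, its implied means divided by those of SCLC had a median log2 ratio of 0.109 with an SD of 0.0084, and the ratios of the 10 genes lay between 0.064 and 0.151. Both comparisons therefore share the SCLC libraries. The labels were checked on defining genes in the authors' deposited tables. The neuroendocrine granule gene Chga had implied means of 1.49 in Normal, 21409 in SCLC and 24139 in GSK, and the surfactant gene Sftpc had 1891873, 215 and 1858.

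The SCLC organoids held less RNA of 8 of these genes than normal lung organoids. By the authors' deposited table, 8 of the 10 fell in SCLC, Thy1 rose and Tagln did not pass. Over the 24719 genes tested in it, 50.4% passed, 25.3% higher and 25.1% lower in SCLC. The median log2 fold change was -6.27 over the 10 genes and 0.10 over all genes tested, in the authors' deposited table. With Lum and Postn, whose SCLC means lay under 1 normalized count, set to their lower bounds, the median of the 10 was -5.09. In bulk RNA, fewer cells of a type cannot be told apart from less RNA per cell.

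The GSK-treated organoids held far more RNA of these genes than their control. By the authors' deposited table, 9 of the 10 rose and Tagln did not pass. Over its 28376 tested genes, 37.1% passed, 21.6% higher and 15.5% lower in GSK. The median log2 fold change was 7.14 over the 10 genes, or 6.61 with Lum and Postn at their bounds, against 0.24 over all genes tested, in the authors' deposited table. Of all calls, 58.2% were in the higher direction. This share became 81.6% with fold changes rescaled to total counts and 70.2% with fold changes centred on genes with a mean of at least 100. The 9 genes that rose also passed as higher under both scalings.

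**Figure D1:**
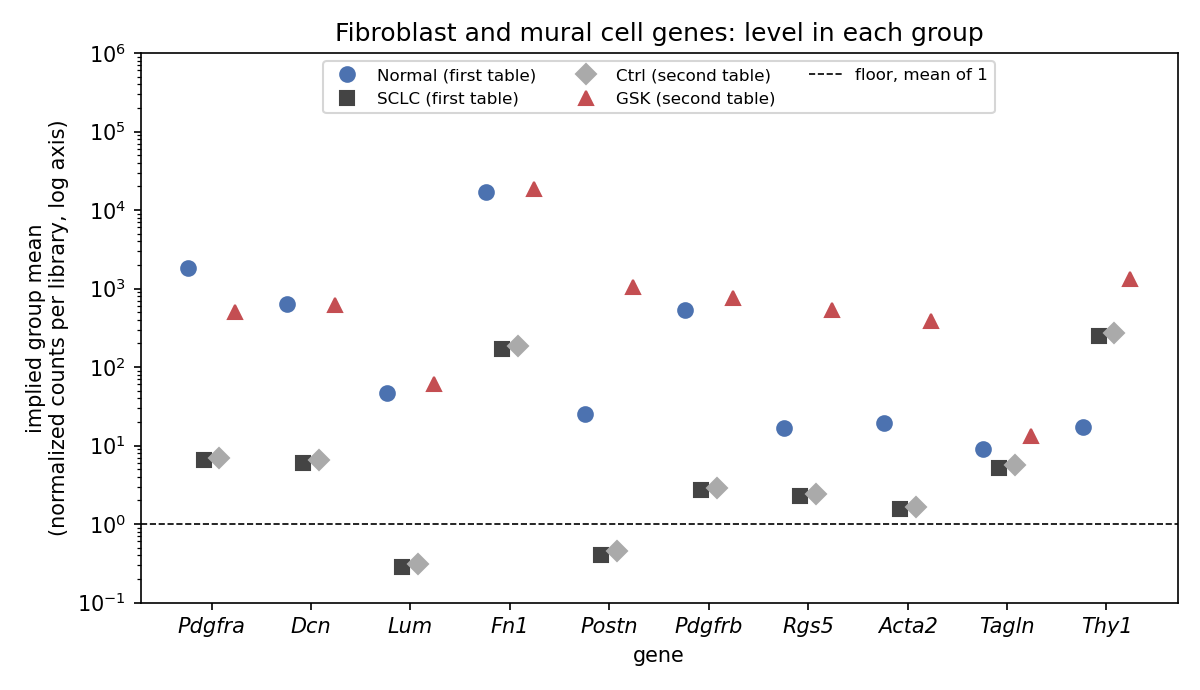
Implied group means of the 10 genes in normalized counts per library on a log axis, with Normal and SCLC from one table and Ctrl and GSK from the other; the dashed line marks a mean of 1, and no error bars are drawn because the tables hold no library values. SCLC and Ctrl lie together for each gene, 8 genes lie well below Normal there, Tagln stays between 5.19 and 13.1 in all groups, and Thy1 climbs from 17.1 in Normal to 1329 in GSK.

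**Figure D2:**
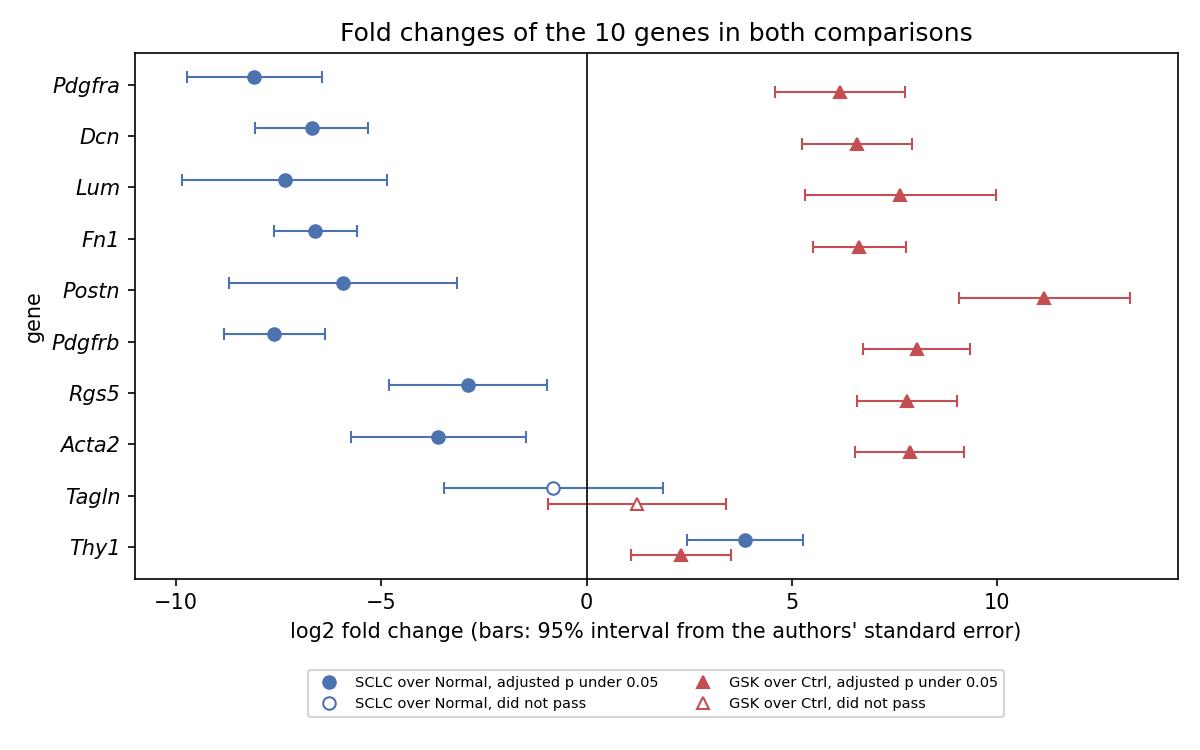
Log2 fold changes of the 10 genes with their 95% intervals from the authors' standard errors; circles are SCLC over Normal, triangles are GSK over Ctrl, and open symbols did not pass. For Lum and Postn one group lay under a mean of 1, so the plotted fitted value is no bound; only Tagln has intervals that cross 0, from -3.48 to 1.87 and from -0.94 to 3.40.

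Pdgfra (ENSMUSG00000029231), the receptor that marks lung fibroblasts, had implied means of 1807 in Normal and 6.61 in SCLC, a fall with a log2 fold change of -8.09 ± 0.84 (SE, adjusted p = 1.06e-20) in the authors' deposited table. This corresponds to a 273-fold lower level with a 95% interval of 87.2 to 857. In the second comparison Pdgfra rose from 7.02 to 506, or by 6.17 ± 0.80 on the log2 scale (SE, adjusted p = 4.41e-13), in the authors' deposited table. It was the gene with the deepest fall of the 10 in SCLC among those with both means above 1.

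Decorin, a small proteoglycan that binds collagen fibrils, is encoded by Dcn (ENSMUSG00000019929). Its implied means were 632 in Normal and 6.07 in SCLC (log2 fold change -6.70 ± 0.70 SE, adjusted p = 1.31e-20), and 6.45 in Ctrl and 617 in GSK (6.58 ± 0.68 SE, adjusted p = 3.06e-20), in the authors' deposited tables. Lum (ENSMUSG00000036446) encodes lumican, a relative of decorin that also organizes fibrils. Its mean of 46.6 in Normal fell to 0.284 in SCLC, at least 46.6-fold lower (adjusted p = 3.86e-08), and it rose from 0.309 in Ctrl to 61.6 in GSK, at least 61.6-fold (adjusted p = 1.73e-09), in the authors' deposited tables. A bound takes the higher mean without its error and is no confidence limit.

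The small leucine-rich proteoglycans, the family of decorin and lumican, were read from the authors' deposited tables, with Dcn and Lum counted among them. Of 10 tested in SCLC against Normal, 6 fell: Dcn, Lum, Bgn, Prelp, Podn and Chad. Over all genes tested there, 50.4% passed and 25.1% were lower. Of 10 tested in GSK against Ctrl, 9 rose, Dcn and Lum included, and Omd did not pass (0.47 ± 1.05 SE). Over all genes tested there, 21.6% were higher. Bgn, which encodes biglycan, was the most changed of those with means above 1: its mean was 1672 in Normal and 2.19 in SCLC (-9.58 ± 1.63 SE), and 2.32 in Ctrl and 2483 in GSK (10.06 ± 1.48 SE). Prelp, a proteoglycan of basement membranes, had means of 558, 10.8, 11.6 and 591 in Normal, SCLC, Ctrl and GSK. Ogn, which encodes osteoglycin, did not pass in SCLC (-1.31 ± 1.45 SE, adjusted p = 0.469) and rose by 5.22 ± 0.87 (SE) with GSK. Fmod, which encodes fibromodulin, likewise did not pass in SCLC (adjusted p = 0.0791) and was at least 41.2-fold higher in GSK.

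Of the 4 ligands of the PDGF receptors, 3 fell in SCLC and Pdgfc rose, and with GSK they split into pairs. Over all genes tested, 25.1% were lower in SCLC and 21.6% higher in GSK. Pdgfb, the ligand that recruits pericytes, had implied means of 621 in Normal, 2.09 in SCLC, 2.25 in Ctrl and 1012 in GSK in the authors' deposited tables, a fall (-8.22 ± 0.62 SE) and then a rise (8.81 ± 0.72 SE). Pdgfd, the other ligand of PDGFRβ, was at least 188-fold lower in SCLC than in Normal and at least 129-fold higher in GSK than in Ctrl, in the authors' deposited tables. Pdgfa, a ligand of PDGFRα made by epithelium, fell in SCLC from 2308 to 208 (-3.47 ± 0.44 SE), and its means of 224 in Ctrl and 192 in GSK did not differ past the threshold (log2 fold change -0.22 ± 0.52 SE, adjusted p = 0.789), in the authors' deposited tables. Pdgfc rose in SCLC (2.41 ± 0.98 SE, adjusted p = 0.0293), and its means of 76.6 in Ctrl and 75.5 in GSK gave a log2 fold change of -0.02 ± 0.86 (SE), in the authors' deposited tables.

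Fibronectin, a large glycoprotein that cells grip through integrins, had the highest level per kilobase of the 10 genes in Normal and in GSK. Fn1 (ENSMUSG00000026193) had implied means of 16764 in Normal and 172 in SCLC, 97.5-fold lower with a 95% interval of 48.4 to 197 (log2 fold change -6.61 ± 0.52 SE, adjusted p = 6.55e-36), in the authors' deposited table. With GSK it rose from 184 to 18320, 99.7-fold with an interval of 45.6 to 218 (adjusted p = 1.44e-28), in the authors' deposited table. Fn1 kept a mean above 100 in SCLC, as did Thy1 among the 10, while the other 8 had means of 6.61 or less there. The tables count whole genes, so the splice forms of fibronectin were not analysed here.

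Periostin, a matrix protein of tissue repair and of activated fibroblasts, is encoded by Postn (ENSMUSG00000027750). Its mean was 24.9 in Normal and 0.410 in SCLC, a fall of at least 24.9-fold (adjusted p = 9.51e-05), in the authors' deposited table. In GSK its mean was 1033 against 0.455 in Ctrl, at least 1033-fold higher (adjusted p = 1.09e-23), and 317 of the 28376 genes tested had a larger fitted rise, in the authors' deposited table. Its paralog Tgfbi had means of 208 in Normal, 9.08 in SCLC, 9.72 in Ctrl and 8589 in GSK, a fall of -4.52 ± 0.71 (SE) and a rise of 9.79 ± 0.76 (SE), in the authors' deposited tables.

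Tgfbi was counted with 6 integrin and syndecan genes whose products bind fibronectin, and of these 7 genes, 5 fell in SCLC and 4 rose with GSK by the authors' deposited tables, and the others did not pass. Over all genes tested, 25.1% were lower in SCLC and 21.6% higher in GSK. Itga5, the α chain of the classical fibronectin receptor, fell in SCLC (672 to 1.81, -8.53 ± 0.66 SE) and rose with GSK (1.95 to 1328, 9.41 ± 0.70 SE). Its partner Itgb1, which pairs with many α chains, stayed abundant, with 20027 in Normal, 10423 in SCLC, 11231 in Ctrl and 8756 in GSK, a fall in SCLC (-0.94 ± 0.18 SE) and no call with GSK (adjusted p = 0.361). Itga4 and Itgb3 rose with GSK (8.06 ± 0.82 and 3.34 ± 0.56 SE) and did not pass in SCLC against Normal (adjusted p = 0.587 and 0.688). Itgav fell in SCLC (-2.32 ± 0.43 SE) and did not pass with GSK (adjusted p = 0.971). Sdc4 fell in SCLC (-4.87 ± 0.26 SE), and with GSK it had 0.56 ± 0.29 (SE, adjusted p = 0.129) but passed as higher under both scalings (1.06, adjusted p = 0.00141, to total counts and 0.80, adjusted p = 0.0209, when centred).

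Among the mural genes, Pdgfrb (ENSMUSG00000024620), the pericyte receptor, had implied means of 527 in Normal and 2.70 in SCLC, a 195-fold fall with a 95% interval of 82.7 to 460 (log2 fold change -7.61 ± 0.63 SE, adjusted p = 6.48e-32), in the authors' deposited table. It rose with GSK from 2.92 to 767, 262-fold with an interval of 106 to 650 (adjusted p = 5.02e-31), in the authors' deposited table. Rgs5 (ENSMUSG00000026678), a marker of pericytes, started from a far lower level. Its means were 16.8 in Normal and 2.27 in SCLC (-2.89 ± 0.98 SE, adjusted p = 0.00812), and 2.41 in Ctrl and 539 in GSK (7.80 ± 0.62 SE, adjusted p = 1.35e-33), in the authors' deposited tables. The fall of Rgs5 no longer passed when the test asked for an absolute log2 fold change above 1 (adjusted p = 0.180).

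The R4 family of RGS proteins, to which RGS5 belongs, moved in both directions in SCLC. Of 6 members tested, Rgs1, Rgs2 and Rgs5 fell and Rgs3 (3.63 ± 0.35 SE), Rgs8 and Rgs16 (2.71 ± 0.47 SE) rose, in the authors' deposited table. Over all genes tested there, 25.1% were lower and 25.3% higher. The rise of Rgs8, from 0.409 in Normal to 116 in SCLC by the authors' deposited table, was at least 116-fold. With GSK, 6 of 7 tested rose in the authors' deposited table, beside 21.6% higher over all genes tested. Rgs3, which did not pass there (0.42 ± 0.28 SE, adjusted p = 0.241), passed as higher under both scalings (0.92 and 0.66 on the log2 scale). The largest fitted rise of the family was that of Rgs1, a gene of lymphocytes and other leukocytes, with 0.0877 in Ctrl and 1483 in GSK, at least 1483-fold, in the authors' deposited table. Rgs4 was listed without an adjusted p in both comparisons.

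**Figure D3:**
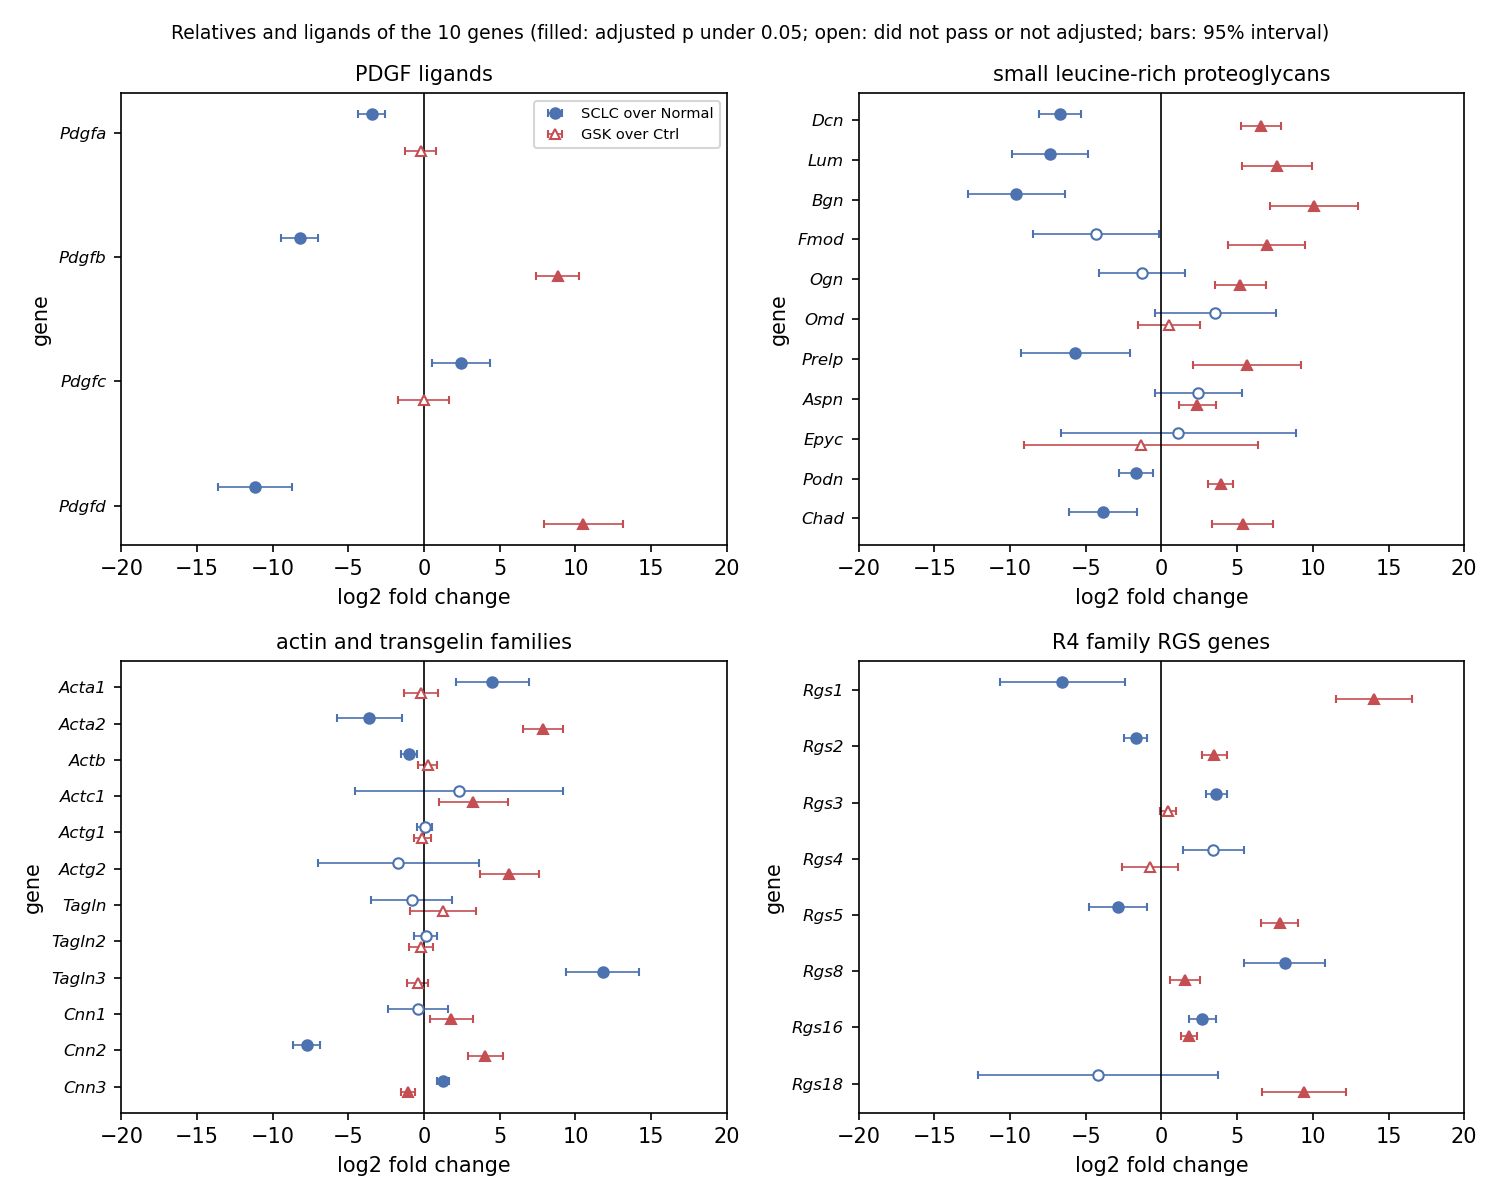
Log2 fold changes with 95% intervals for PDGF ligands, small leucine-rich proteoglycans, actins with transgelins and calponins, and R4 family RGS genes; circles are SCLC over Normal, triangles are GSK over Ctrl, filled symbols passed, and genes with a group under a mean of 1 are shown at their fitted value. Pdgfb and Pdgfd move far in both comparisons, Pdgfa and Pdgfc passed for SCLC and did not pass for GSK, and Tagln2 and Actg1 lie near 0 in both.

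Acta2 (ENSMUSG00000035783) encodes the actin of smooth muscle and of contractile fibroblasts. Its implied means were 19.1 in Normal and 1.56 in SCLC, a fall (log2 fold change -3.61 ± 1.09 SE, adjusted p = 0.00245), in the authors' deposited table. That fall did not pass a recomputed test of an absolute log2 fold change above 1 (adjusted p = 0.0623). With GSK its mean went from 1.63 to 383, a 234-fold rise with a 95% interval of 93.5 to 588 (adjusted p = 4.27e-29), in the authors' deposited table. Tagln (ENSMUSG00000032085), the transgelin gene that usually accompanies Acta2 in smooth muscle, did not follow. Its means were 9.09 in Normal, 5.19 in SCLC, 5.59 in Ctrl and 13.1 in GSK, and the 95% interval of its log2 fold change was -3.48 to 1.87 in SCLC against Normal and -0.94 to 3.40 in GSK against Ctrl (adjusted p = 0.645 and 0.409), in the authors' deposited tables. The upper end for Tagln with GSK lay below the lower end for Acta2, which was 6.55.

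Relatives of both genes were read from the same tables. Of 12 actin, transgelin and calponin genes, Acta2, Actc1, Actg2, Cnn1 and Cnn2 rose with GSK and Cnn3 fell (-1.07 ± 0.23 SE), going by the authors' deposited table. Over all genes tested there, 21.6% were higher and 15.5% lower. Actg2, the enteric smooth muscle actin, was at least 33.1-fold higher in GSK, and Cnn1, a calponin of smooth muscle, went from 5.41 to 18.9 (1.80 ± 0.72 SE, adjusted p = 0.0362), in the authors' deposited table. Actb, Actg1 and Tagln2, which most cells express, did not pass with GSK (log2 fold changes 0.23 ± 0.32, -0.11 ± 0.28 and -0.19 ± 0.40 SE) in the authors' deposited table. In SCLC against Normal, Acta2, Actb (-0.98 ± 0.27 SE) and Cnn2 (-7.75 ± 0.45 SE) fell and Acta1, Cnn3 and Tagln3 rose in the authors' deposited table. These 3 falls and 3 rises among 11 tested were close to the shares over all genes tested, 25.1% lower and 25.3% higher. By the authors' deposited table, Tagln3, the neuronal transgelin, had a mean of 0.800 in Normal and 2844 in SCLC and so rose at least 2844-fold.

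Contractile actin genes are known targets of serum response factor, which binds a short element called the CArG box, and the boxes found near their starts are printed here because the actin genes differed in their change with GSK. RefSeq promoter windows of 300 bases (250 before and 50 after the start, build GRCm38.p6) were found for 4 of the 10 genes, Pdgfra, Acta2, Postn and Rgs5, and for 9 of the 12 actin, transgelin and calponin genes. A CArG box was searched as CC, 6 letters A or T, and GG, a pattern that reads the same on both strands, and again with at most 1 of the 6 letters G or C. The first form was in 1.63% and the second in 9.98% of all 32851 windows. The window of Acta2 held 2 boxes, both of the second form, and those of Pdgfra, Postn and Rgs5 held neither form. Of the relatives, Acta1, Actc1, Actg1 and Cnn2 held a box of the first form, and Cnn1, Cnn3, Tagln2 and Tagln3 held neither. Further matches of the second form, in Acta1 and Actc1, are left out of the lines that follow. Each line gives 30 bases, 5′ to 3′ on the gene's strand, with the box in capitals.
Acta2, chr19:34255438-34255467, minus strand, 84 bases before the start: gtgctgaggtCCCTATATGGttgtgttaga
Acta2, chr19:34255388-34255417, minus strand, 34 bases before the start: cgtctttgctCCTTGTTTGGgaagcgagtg
Actc1, chr2:114053031-114053060, minus strand, 175 bases before the start: ctccctagctCCCTATATGGccattgctct
Actc1, chr2:114052903-114052932, minus strand, 47 bases before the start: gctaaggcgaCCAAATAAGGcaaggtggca
Acta1, chr8:123894829-123894858, minus strand, 73 bases before the start: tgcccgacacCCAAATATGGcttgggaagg
Actg1, chr11:120348566-120348595, minus strand, 90 bases before the start: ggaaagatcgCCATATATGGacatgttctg
Cnn2, chr10:79988534-79988563, plus strand, 56 bases before the start: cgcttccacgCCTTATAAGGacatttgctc

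The first printed boxes of Acta2 and Actc1 have the same letters, while other second-form boxes of Actc1 and Acta1 were not printed. Of the genes with a printed box, Acta2, Actc1 and Cnn2 rose with GSK, Actc1 from 2.12 to 20.4 (3.26 ± 1.15 SE, adjusted p = 0.0152), in the authors' deposited table. Acta1 (-0.21 ± 0.57 SE) and Actg1, also with a printed box, did not pass with GSK. Of the relatives with neither form, Cnn1 rose, Cnn3 fell, and Tagln2 and Tagln3 did not pass, in the authors' deposited table. No window was found for Tagln, Actb and Actg2, so they were not searched. Whether a box goes with the change was not tested. A match describes the letters of a window and is not a measured binding site. Srf itself, which encodes the factor, rose in SCLC (0.75 ± 0.21 SE) and did not pass with GSK (-0.49 ± 0.22 SE, adjusted p = 0.0662), and Myocd, its partner in smooth muscle, had means of 1.70 in Ctrl and 5.10 in GSK (adjusted p = 0.421), in the authors' deposited tables.

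Thy1 (ENSMUSG00000032011) went against the other genes in SCLC. Its implied means were 17.1 in Normal and 250 in SCLC, a 14.6-fold rise with a 95% interval of 5.47 to 38.8 (adjusted p = 3.87e-07), in the authors' deposited table. With GSK it also rose, from 270 to 1329, 4.92-fold with an interval of 2.11 to 11.4 (log2 fold change 2.30 ± 0.62 SE, adjusted p = 0.00107), in the authors' deposited table. That rise did not pass the test of an absolute log2 fold change above 1 (adjusted p = 0.214). Because neurons and T cells also carry Thy-1, their markers were read beside it. Of 9 neuronal markers tested in SCLC against Normal, 8 rose, among them Elavl3 (11.66 ± 0.71 SE), Rbfox3, Tubb3 and Ncam1, and Nefl did not pass, in the authors' deposited table. Over all genes tested there, 25.3% were higher. With GSK, Map2 rose (1.44 ± 0.39 SE), Tubb3 fell (-2.76 ± 0.28 SE) and the other 8 of 10 did not pass in the authors' deposited table. Over all genes tested with GSK, 21.6% were higher and 15.5% lower. Snap25 passed as higher when scaled to total counts (0.84, adjusted p = 0.00898). The 7 T cell markers summed to implied means of 4.08 in Normal and 4.59 in SCLC, and to 6.40 in Ctrl and 3525 in GSK. In Ctrl 6 of the 7, all but Cd4, lay under a mean of 1. All 7 rose with GSK in the authors' deposited table, beside the same 21.6% higher over all genes tested. Examples were Cd3e, from 0.326 to 304, and Cd8a, from 0.910 to 650. The part of the neuronal and T cell markers in the values of Thy1 was not tested.

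A further 24 fibroblast genes were counted in the authors' deposited tables. In SCLC against Normal, 15 of 22 tested fell, and Eln (3.78 ± 0.73 SE), Fbln1 (2.30 ± 0.71 SE) and Fbn1 (2.09 ± 0.60 SE) rose. Over all genes tested there, 25.1% were lower and 25.3% higher. Eln, Fbln1 and Fbn1 encode elastin, fibulin 1 and fibrillin 1, proteins of elastic fibres. Sparc, a collagen-binding glycoprotein, fell from 35528 to 4.34 (-13.00 ± 0.36 SE), and the collagen gene Col3a1 from 3036 to 3.05 (-9.96 ± 1.61 SE). Prrx1, a mesenchymal transcription factor, was at least 615-fold lower, a bound that gives it no rank among them. With GSK, 20 of 24 rose, beside 21.6% higher over all genes tested. Fbn1 fell with GSK (-1.60 ± 0.36 SE), and Fbln1 (-0.54 ± 0.59 SE), Meox2 (-1.15 ± 0.51 SE) and Twist2 did not pass. With both means above 1, the collagen genes Col3a1 (3.37 to 5527, 10.68 ± 0.74 SE) and Col1a1 (3.02 to 3799, 10.30 ± 0.75 SE) had the largest rises with GSK. Against Ctrl means under 1, Inmt, an enzyme of lung fibroblasts, was at least 1149-fold higher, Mfap4, a microfibril protein, at least 1244-fold and Tcf21, a factor of lung fibroblasts, at least 168-fold. In SCLC against Normal, Inmt had a mean of 0.0710 over both groups and no adjusted p, too few counts to give a level per group.

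A further 24 mural genes were counted in the same way in the authors' deposited tables. In SCLC against Normal, 8 of 22 tested fell and 13 did not pass. Over all genes tested there, 50.4% passed, 25.1% as lower and 25.3% as higher. Gucy1b1, a subunit of the nitric oxide receptor, rose (99.6 to 1860, 4.22 ± 0.37 SE). Kcnj8, a potassium channel of pericytes, fell from 561 to 1.17 (-8.91 ± 1.57 SE), and Notch3, a receptor of mural cells, from 369 to 3.65 (-6.66 ± 0.53 SE). With GSK, 19 of 24 rose, beside 21.6% higher over all genes tested, and Smtn, Myocd, Tpm2, Cald1 and Gucy1b1 did not pass. Heyl, a target of Notch signalling, was at least 157-fold higher, Trpc6, a cation channel, at least 62.3-fold higher, and Notch3 rose from 3.98 to 539 (7.08 ± 0.66 SE). The smooth muscle myosin gene Myh11, which did not pass in SCLC against Normal (29.5 and 14.5), rose with GSK from 15.6 to 198 (3.66 ± 0.65 SE).

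Markers of cells outside the mesenchyme also moved in the authors' deposited tables. In SCLC against Normal, 4 of 8 endothelial markers and all 7 macrophage and pan-immune markers fell. Over all genes tested, 25.1% were lower there and 21.6% were higher with GSK. All 8 endothelial markers rose with GSK, and their summed implied means went from 534 to 24569, with Cdh5, the cadherin of endothelium, at 0.933 in Ctrl and 5311 in GSK. In Ctrl 3 of the 8, Cdh5, Emcn and Tie1, lay under a mean of 1. All 7 macrophage and pan-immune markers also rose, and their sum went from 126 to 120097, of which the lysozyme gene Lyz2, also expressed by alveolar type II cells, made up 94202 in GSK. Among them was Ptprc, the pan-leukocyte phosphatase CD45, at 0.0877 in Ctrl and 12562 in GSK. In Ctrl 3 of the 7, Ptprc, Adgre1 and Itgam, lay under a mean of 1. In Normal those sums were 464 and 110144, and Lyz2 made up 108056 of the second. The sums of the 10 genes were 19863 in Normal, 447 in SCLC, 481 in Ctrl and 23568 in GSK. Of the neuroendocrine genes Chga and Insm1, Chga did not pass with GSK (0.06 ± 0.33 SE) and Insm1 fell (-1.95 ± 0.27 SE), in the authors' deposited table. Markers of normal lung epithelium moved too, in the authors' deposited tables: the club cell gene Scgb1a1 had means of 17222 in Normal, 2.17 in SCLC, 2.37 in Ctrl and 5428 in GSK, a fall (-12.95 ± 0.62 SE) and a rise (11.16 ± 0.74 SE), and Sftpc of alveolar type II cells fell (-13.10 ± 0.26 SE) and rose 7.99-fold with a 95% interval of 5.13 to 12.5. Sex-linked transcripts differed between groups as well, with implied means of the X-inactivation RNA Xist of 31710 in Normal, 1.76 in SCLC, 1.87 in Ctrl and 15.7 in GSK, and of the Y-linked Ddx3y of 0.411, 1009, 1090 and 3868. The part of any of these in the values of the 10 genes was not tested.

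**Figure D4:**
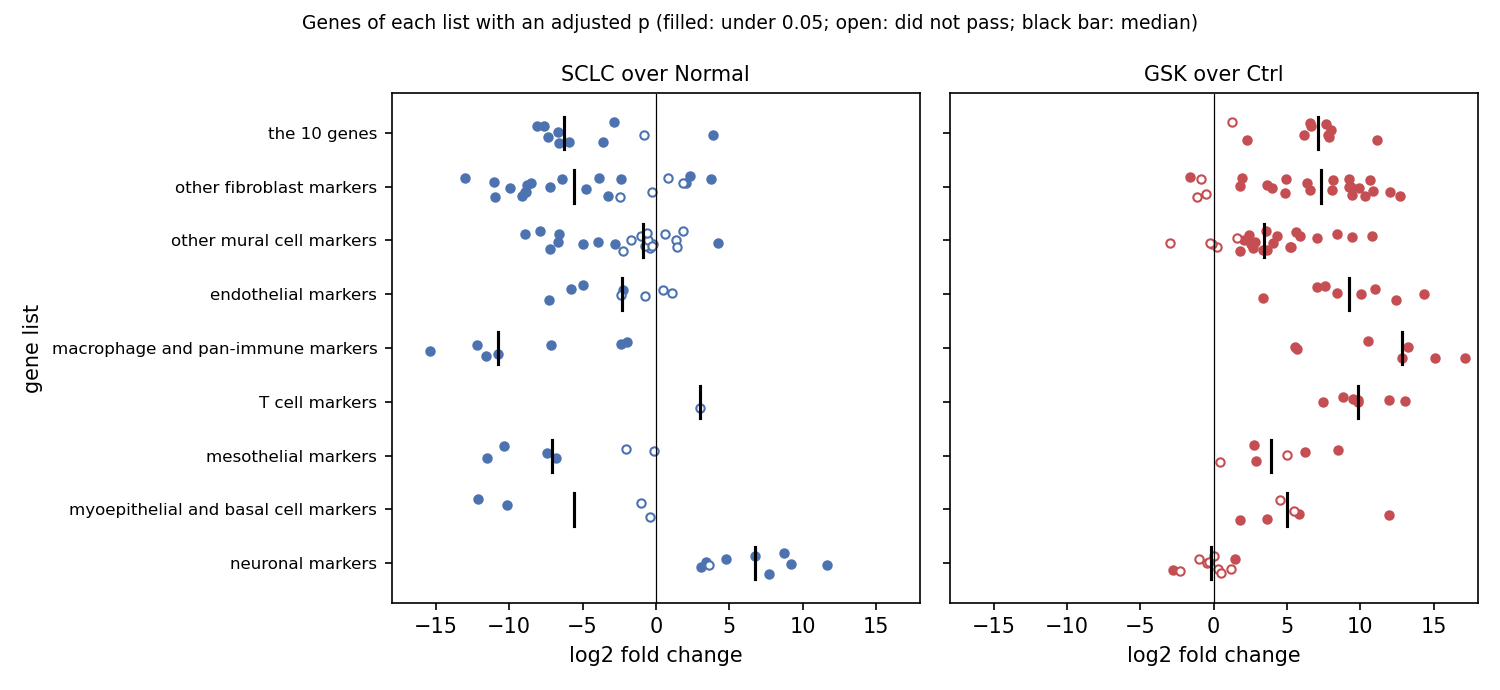
Log2 fold changes of the genes with an adjusted p in 9 lists, SCLC over Normal on the left and GSK over Ctrl on the right; each point is a gene, filled where it passed, the vertical position within a list is arbitrary, and black bars are medians over fitted values. The 10 genes lie at a median of -6.27 on the left and 7.14 on the right, where the endothelial, immune and T cell lists lie at 9.23, 12.89 and 9.87 and the neuronal list at -0.16.

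The levels in Normal and GSK can be set side by side, although the tables were scaled separately and no test was made across them. For this, GSK means were divided by 1.08, the median ratio of Ctrl to SCLC means. The quotient of GSK over Normal was 0.906 for Dcn, 1.01 for Fn1, 1.23 for Lum, 1.34 for Tagln and 1.35 for Pdgfrb, so these 5 genes lay within 1.5-fold of Normal, from the authors' deposited tables. Pdgfra lay lower, at 0.260. The quotients of Acta2, Rgs5, Postn and Thy1 were 18.6, 29.7, 38.4 and 71.9. These quotients carry no measure of error.

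Per kilobase of the longest coding transcript, which allows genes to be compared, the order in Normal was Fn1 (2016 normalized counts per kb), Dcn (359), Pdgfra (264), Pdgfrb (97.2), Lum (19.0), Thy1 (9.88), Acta2 (9.40), Postn (7.77), Tagln (5.70) and Rgs5 (4.10), from the authors' deposited table and GENCODE M21 lengths. In GSK the order was Fn1 (2203), Thy1 (766), Dcn (351), Postn (322), Acta2 (188), Pdgfrb (141), Rgs5 (132), Pdgfra (74.0), Lum (25.2) and Tagln (8.24), from the same sources. In SCLC, Thy1 led with 144, ahead of Fn1 with 20.7, and the other 8 genes were at 3.45 or less per kb. Whether neighbours in these orders differ could not be tested, since no spread of the levels is given.

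Most fold changes of the 10 genes had a larger SE than most genes with a like mean, defined as within a factor of 2. Like genes were matched only on the mean over both groups. A gene with a low mean in either group can therefore have a larger SE from counting alone. The shares below do not separate counting error from spread between libraries. For GSK over Ctrl, the SE of Fn1 in the authors' deposited table was 0.58, and 98.6% of 1573 genes of like mean had a smaller one, with a median of 0.28. The SE of Postn exceeded that of 95.7%, of Thy1 that of 91.3% and of Pdgfra that of 88.4% of like genes there. For SCLC over Normal, the SE of Pdgfra in the authors' deposited table (0.84) exceeded that of 96.8% of 4599 like genes and the SE of Fn1 that of 95.4%. Tagln, at 56.9% and 56.8%, and Acta2 and Rgs5 in SCLC against Normal, at 49.0% and 31.7%, did not stand apart in this way. Whether any library carried more of the spread was not analysed here, and the influence of 1 library on any of these values was not tested.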

How the data were processed

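Libraries were prepared with a stranded mRNA kit and sequenced as paired reads of 150 bp, per the labels' protocols, and the submitters' processing notes name STAR 2.7.9a and the build GRCm39. For read counting, gene annotation and differential expression, the tool or release is not given in the sources used here. The authors deposited 2 comparison tables whose columns, per the file headers, are those of a DESeq2 results table. The signal column deposited by the authors is the mean of normalized counts over 6 libraries. The log2 fold change and its standard error, a score column, came from the authors' fit, as did the statistic. The p-value columns deposited by the authors are unadjusted and adjusted.

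Calls used the authors' adjusted p under 0.05 over all genes tested. Group means were implied from mean and fold change, 3 libraries each; under a mean of 1 (3 counts per group), folds were computed against 1 and given as lower bounds. Intervals are 95% from the standard error. Adjusted p-values under the 2 scalings and in the test above 1 were recomputed from the authors' fold changes and standard errors. Depth per library and replicate spread could not be seen. Such floors cover counting error only. The 10 genes and 16 further lists were chosen with earlier results of these data known. The results of 1 of these lists are not reported here. All 10 genes were named, and up to 4 of the largest changes per list, plus paralogs, ligands and small groups; Inmt, Myh11, Insm1, Scgb1a1, Xist and Ddx3y and some further examples were chosen after their values were seen. Derived quantities were tested on simulated data. Python 3.11.15, pandas 2.3.3 and scipy 1.17.1 were used.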

Additional observations from a re-analysis of the deposited data

How the results depend on the processing

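The alternatives computed for the calls of the 10 genes included adjustment over every gene with a p-value and an adjusted p under 0.01. Testing for an absolute log2 fold change beyond 1 was another. Fold changes were also scaled to total counts and centred on genes with a mean of at least 100. Scaling subtracted -0.09 from each log2 fold change for SCLC and -0.51 for GSK. Centring subtracted 0.18 for SCLC and -0.25 for GSK. No direction reversed in these alternatives, and the counts of genes higher or lower stayed within 1.5 times. The 3 calls that ended, all in the test above 1, were those of Acta2 and Rgs5 in SCLC against Normal and of Thy1 in GSK against Ctrl, with the adjusted p-values given beside them. Another normalization and leaving out each replicate were not run, since the tables hold no library values. No paired analysis was possible because no column holds a single library. Low means limit the fold changes of Lum, Postn and Tagln. They also limit those of Acta2, Rgs5 and Pdgfrb, whose means were 1.56, 2.27 and 2.70 in SCLC and 1.63, 2.41 and 2.92 in Ctrl.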

Other observations

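Lists not described above held other genes of the mesenchymal state. A first list held TGF-beta ligands and receptors, Srf and its cofactors, and Ccn1 and Ccn2, which encode matrix signalling proteins. Of its 11 genes tested in SCLC against Normal, 9 fell, Ccn1 and Ccn2 among them, and Srf rose in the authors' deposited table. Over all genes tested there, 25.1% were lower. The call of Tgfbr1 (-0.49 ± 0.20 SE) ended when scaled to total counts (adjusted p = 0.0834). Mrtfa, which did not pass, was called lower when centred. Tgfbr2, the signalling receptor of TGF-beta, had implied means of 21925 in Normal and 630 in SCLC (-5.12 ± 0.23 SE). With GSK, 7 of 12 rose in the authors' deposited table, beside 21.6% higher over all genes tested. Among the 7 were Ccn1, Tgfb1, an activator of fibroblasts, from 138 to 2350 (4.09 ± 0.71 SE), and Ccn2, from 2.49 to 397 (7.32 ± 0.62 SE). Tgfb2 (adjusted p = 0.0987) and Tgfb3 (adjusted p = 0.420) did not pass with GSK.

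Transcription factors of epithelial-mesenchymal transition did not move as a set in the authors' deposited tables. Zeb2 fell in SCLC (503 to 5.60, -6.49 ± 0.69 SE) and rose with GSK (6.09 to 2456, 8.66 ± 0.72 SE), whereas its paralog Zeb1 rose in SCLC (89.1 to 2152, 4.59 ± 0.41 SE) and did not pass with GSK (0.27 ± 0.23 SE) unless scaled to total counts (0.77, adjusted p = 0.00370). Twist1 and Snai1 fell in SCLC and rose with GSK, Twist1 by 6.35 ± 0.53 (SE) and Snai1 by 2.25 ± 0.71 (SE). Cdh2, the cadherin of neural and mesenchymal cells, rose in SCLC (6.32 ± 0.28 SE) and did not pass with GSK (adjusted p = 0.0569). The epithelial cadherin gene Cdh1 and Epcam fell in SCLC and did not pass with GSK (adjusted p = 0.382 and 0.369).

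Of 6 mesothelial markers, Msln, Krt19, Upk1b and Wt1 fell in SCLC and rose with GSK in the authors' deposited tables. Over all genes tested, 25.1% were lower in SCLC and 21.6% higher with GSK. Msln, which encodes mesothelin, had implied means of 22735, 7.82, 8.55 and 63.3 in Normal, SCLC, Ctrl and GSK. Among 7 myoepithelial and basal cell markers, 2 of 4 tested fell in SCLC and 4 of 6 tested rose with GSK, in the authors' deposited tables. Krt17 was at least 360-fold lower in SCLC and at least 350-fold higher in GSK. Trp63 was at least 178-fold lower in SCLC and had a mean of 0.0794 over Ctrl and GSK together, without an adjusted p. Krt5, Krt14 and Krt15, with implied means of 927, 709 and 505 in Normal, were listed without a p-value in SCLC against Normal. With GSK, Krt14 rose (adjusted p = 0.0152), and Krt5 and Krt15 did not pass (adjusted p = 0.290 and 0.100).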
